A study of Mus musculus with 6 samples.

Results

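Natural killer (NK) cells carrying transcripts of Itga1, the integrin alpha 1 chain also called CD49a, were examined in MC38 tumours. Cells had been chosen from 6 droplet libraries by their transcripts. A barcode was kept with at least 300 genes, at least 500 unique molecular identifiers (UMIs, each 1 captured RNA molecule) and at most 10% mitochondrial UMIs. It was called an NK cell when it had no assembled T cell receptor, no UMI of Cd3e or Cd3g, and at least 1 UMI of at least 2 of the genes Ncr1, Klrb1c, Klra4, Klra7 and Klra8. An NK cell with at least 1 Itga1 UMI is called Itga1-positive below, and one without is called Itga1-zero. The rule found 768 Itga1-positive cells among 1880 NK cells, 39424 kept cells and 41679 barcodes.

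Live CD45+ cells, that is leukocytes, had been sorted from tumours of MC38, a mouse colon carcinoma line placed under the skin, and taken at day 25. The 3 cko samples came from mice with a tamoxifen-inducible knockout of Ctcf in Tregs, the regulatory T cells. The 3 ctr samples came from mice with wild-type Ctcf in Tregs. All 6 tumours had grown from wild-type MC38 cells, and the labels call the 3 samples of a group biological replicates. NK cells are not the targeted cells in the labels, and the driver of the knockout and the age of the mice are not given in the sources used here.

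NK cells kill target cells with perforin and granzymes and do so without a rearranged antigen receptor. Integrin alpha 1 pairs with the beta 1 chain Itgb1 and binds collagen and laminin. In the mouse it marks NK cells and type 1 innate lymphoid cells (ILC1) that stay in a tissue, whereas the integrin chains Itga2 and Itgam and the sphingosine phosphate receptor S1pr5 are known from NK cells that circulate. Gzmc is one of a cluster of granzyme genes that mouse lymphocytes switch on after strong activation.

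The Itga1-positive cells numbered 53, 45 and 69 in cko replicates 1 to 3 and 233, 123 and 245 in ctr replicates 1 to 3. Each library's sum over its Itga1-positive cells held between 441021 and 896748 UMIs in cko and between 1714980 and 3574938 UMIs in ctr, so single-gene values of the cko libraries rest on fewer molecules. Levels below are UMI counts scaled to 1000000 UMIs in all (CPM) in such sums. No barcode of an NK cell was shared between libraries. Replicates 1 and 3 of cko shared 197 T cell clonotypes, of 616 and 711 in those libraries, while no other pair of libraries shared more than 3. Whether these 2 libraries stand for separate animals was not tested, and the comparisons were repeated with the 2 added together as 1 sample. The p-values of the genotype comparisons measure the spread between the 6 samples. Those between Itga1-positive and Itga1-zero cells, with the library as a block, measure how the difference varies among the libraries.

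A cell with more UMIs in all, called deeper here, is more likely to show an Itga1 UMI. The median UMI count of Itga1-positive cells was 10285, 10657 and 12872 in cko replicates 1 to 3 and 14151, 13171 and 14817 in ctr replicates 1 to 3. That of Itga1-zero cells was 5477, 2754 and 5280 in cko and 9185, 7327.5 and 8032.5 in ctr. Itga1-positive cells were thus deeper in every library, and cko cells were shallower than ctr cells in both states. Over all NK cells the medians were 6333, 3963 and 6773.5 in cko and 11988.5, 9490 and 11127 in ctr. T cells of the same libraries had medians of 6633, 6727 and 7180.5 in cko and 6751, 7533 and 6102 in ctr, which overlap. Whether sequencing or the RNA per cell set the lower counts of cko NK cells was not tested. Of the 768 Itga1-positive cells, 389 had 1 Itga1 UMI, just inside the threshold, and 379 had more. Cells with at least 3 numbered 8, 14 and 18 in cko replicates 1 to 3 and 57, 34 and 67 in ctr replicates 1 to 3. For these reasons the comparisons were repeated on cells paired within a library by UMI count and on cells thinned to 1888 UMIs. In the gene comparisons on thinned cells each cell kept the Itga1 state of its full depth. Thinning therefore evens the counts there, but cannot correct a state that depth had set.

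The rule's own genes describe the cells and were left out of every test. Itga1 (ENSMUSG00000042284, GRCm38 chr13:114953096-115101964, minus strand) stood at 156, 191 and 152 CPM in Itga1-positive cells of cko replicates 1 to 3 and at 131, 165 and 154 CPM in those of ctr replicates 1 to 3. Ncr1, the activating receptor NKp46, stood at 584, 589 and 546 CPM in Itga1-positive cells of cko and at 300, 535 and 504 CPM in those of ctr. Klrb1c, the receptor NK1.1, stood at 276, 313 and 351 CPM in Itga1-positive cells of cko and at 533, 443 and 451 CPM in those of ctr. Ncr1 was higher in Itga1-positive than in Itga1-zero cells of 1 library out of 6, and Klrb1c was lower in Itga1-positive cells of all 6 libraries. At least 3 of the 5 NK genes were found in 33, 25 and 46 Itga1-positive cells of cko and in 167, 90 and 191 of ctr.

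Itga1-positive cells made up a smaller part of the NK cells in cko tumours. Their share was 27.0% (exact 95% interval 21.0 to 33.8), 31.7% (24.1 to 40.0) and 27.2% (21.8 to 33.1) in cko replicates 1 to 3. In ctr replicates 1 to 3 it was 49.4% (44.8 to 54.0), 40.9% (35.3 to 46.7) and 47.6% (43.2 to 52.0). All 3 cko libraries lay below all 3 ctr libraries, although the intervals of cko replicate 2 and ctr replicate 2, which cover counting error only, overlapped. The means were 28.6 ± 2.65% in cko and 45.9 ± 4.48% in ctr (SD, n = 3 each), a difference of -17.3 percentage points (two-sided exact permutation p = 0.1, the smallest p that 3 against 3 samples can give). With cko replicates 1 and 3 added together the mean was 29.4% in cko and 45.9% in ctr (exact permutation p = 0.2, the smallest that 2 against 3 samples can give).

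**Figure D1:**
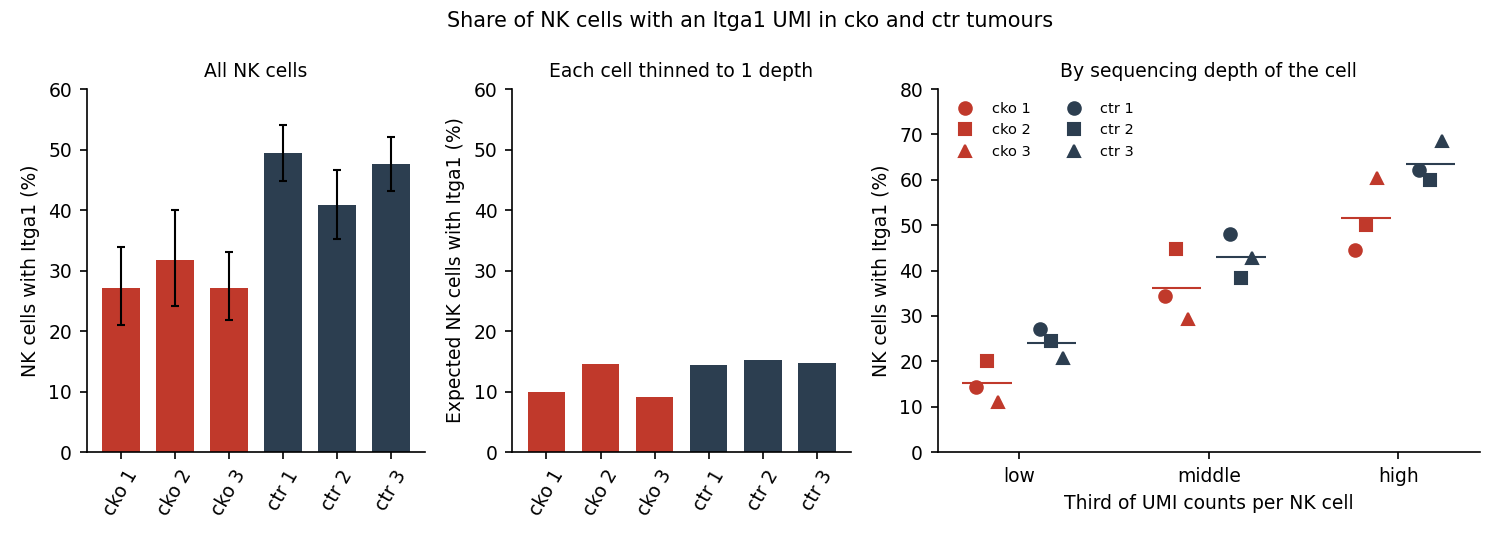
The left panel shows the share of NK cells with an Itga1 UMI (percent, axis from 0) as a bar for each of the 3 cko (red) and 3 ctr (dark) libraries with exact 95% intervals, the middle panel the share expected when each cell is thinned to 1888 UMIs, and the right panel the share in 3 ranges of UMI count, with a point for each library and a line at each group mean. The cko bars (27.0 to 31.7%) lie below the ctr bars (40.9 to 49.4%) before thinning, and the share climbs with depth in both groups.

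The share was also compared with UMI counts per cell evened by thinning or held within a range. Thinned to 1888 UMIs, 9.96, 14.5 and 9.16% of NK cells in cko replicates 1 to 3 still showed Itga1, against 14.4, 15.2 and 14.7% in ctr replicates 1 to 3. Cko replicate 2 then lay among the ctr libraries, and the means were 11.2 ± 2.89% in cko and 14.8 ± 0.405% in ctr (SD, n = 3 each; exact permutation p = 0.2). Thinning left out 33, 40 and 37 shallower NK cells of cko and 21, 25 and 32 of ctr. Among NK cells of 519 to 5953 UMIs the share averaged 15.1% in cko and 24.1% in ctr, with no overlap between groups (exact permutation p = 0.1). Among those of 5954 to 13413 UMIs it averaged 36.1% in cko and 43.1% in ctr (p = 0.3), and among those of 13414 to 58898 UMIs 51.6% in cko and 63.5% in ctr (p = 0.2, both exact permutation tests), and the groups overlapped in both of these ranges. The cko mean lay below the ctr mean in each range. Depth was not even within the lowest range. Median UMI counts there were 2581.5, 1899 and 2757 in cko and 3322, 3167.5 and 3333 in ctr. Every cko library was thus still shallower in that range, and the part of depth in its gap was not tested. The Itga1 level over all NK cells overlapped between groups, at 57.9, 86.6 and 62.3 CPM in cko and 77.4, 82.7 and 91.6 CPM in ctr.

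Of all kept leukocytes, Itga1-positive NK cells were 0.775, 0.734 and 0.996% in cko replicates 1 to 3 and 3.64, 2.10 and 3.37% in ctr replicates 1 to 3. The groups did not overlap, with means of 0.835 ± 0.140% in cko and 3.04 ± 0.818% in ctr (SD, n = 3 each; exact permutation p = 0.1). NK cells as a whole were 2.95 ± 0.678% of kept cells in cko and 6.53 ± 1.21% in ctr (SD, n = 3 each; exact permutation p = 0.1). With cko replicates 1 and 3 added together the means in cko were 0.810% for Itga1-positive and 2.79% for all NK cells (exact permutation p = 0.2 for both). These shares were also taken without cells that carry genes of other lineages. A first filter removed cells with at least 2 genes of a T cell list or at least 2 of a macrophage list. Itga1-positive cells were then 0.112% of kept cells in cko and 0.2% in ctr (exact permutation p = 0.1). NK cells were then 0.915% in cko and 0.901% in ctr (exact permutation p = 0.9). This filter left 5, 9 and 8 Itga1-positive cells in cko and 11, 13 and 15 in ctr. Their median UMI counts were 2782, 2304 and 6215 in cko and 6896, 2593 and 4081 in ctr. Each lay below the median of all Itga1-positive cells of its library. The filter thus took out deeper cells, and the part of depth in these shares was not tested. A narrower filter, on genes that define other lineages, used the same lists without Trbc1, Trbc2, Cd28, Lef1 and Ccr2. It left 39, 38 and 54 Itga1-positive cells in cko replicates 1 to 3 and 93, 77 and 153 in ctr replicates 1 to 3. Itga1-positive cells were then 0.657% in cko and 1.62% in ctr, and NK cells 2.35% in cko and 3.77% in ctr (exact permutation p = 0.1 for both). Without either filter, Itga1-zero NK cells were 2.11 ± 0.544% of kept cells in cko and 3.49 ± 0.390% in ctr (SD, n = 3 each). These shares are parts of one whole and cannot tell a smaller number of NK cells from a larger number of other leukocytes, nor fewer cells from less RNA per cell.

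Free RNA in the droplets also gives cells single UMIs. An Itga1 UMI was seen in 8.17, 7.43 and 8.31% of macrophages of cko replicates 1 to 3 and in 2.44, 1.49 and 1.99% of those of ctr, at median depths of 7294.5, 9126.5 and 8331.5 UMIs in cko and 8969, 10577 and 8862 UMIs in ctr. Whether macrophages carry the gene themselves was not tested. Among B cells of cko replicate 2 an Itga1 UMI was seen in 1.54% (2 of 130 cells, median depth 9693 UMIs). The other libraries held at most 10 B cells each. The share among NK cells lay above that among macrophages in all 6 libraries. The macrophage share was higher in cko, and the part of free RNA in the NK share was not tested. T cells showed an Itga1 UMI in 20.3, 13 and 18.5% of cko and 12.9, 13.8 and 9.96% of ctr cells.

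Within a library, Itga1-positive NK cells carried more transcripts of the granzymes Gzmd and Gzme and of Ctla2a, and fewer of the chemokines Ccl5 and Ccl3 and of genes known from circulating NK cells, than Itga1-zero NK cells of the same library. Of 9592 genes tested in a fit with the library as a block, 594 (6.19%) passed an adjusted p of 0.05 by edgeR's quasi-likelihood test with Benjamini-Hochberg adjustment. Of these, 332 (3.46% of genes tested) were higher and 262 (2.73%) were lower in Itga1-positive cells. Called or not, 3.33% of genes tested were higher and 8.72% were lower in Itga1-positive cells of all 6 libraries. On cells paired by UMI count 319 genes passed, of which 242 were among the 594, all with the same sign. Adding cko replicates 1 and 3 together left 593 genes past it, of which 540 were among the 594. The 6 libraries of both genotypes entered this fit, since each holds both states.

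Gzmc (ENSMUSG00000079186, chr14:56231441-56234656, minus strand) stood at 9192, 13478 and 7136 CPM in Itga1-positive cells of cko replicates 1 to 3 and at 8792, 6065 and 8388 CPM in those of ctr replicates 1 to 3. In Itga1-zero cells it stood at 4977, 4831 and 644 CPM in cko and at 3462, 1804 and 4285 CPM in ctr. The lowest Itga1-positive value lay above the highest Itga1-zero value, and the gene was higher in all 6 libraries. The means were 8842 ± 2547 CPM in Itga1-positive and 3334 ± 1757 CPM in Itga1-zero cells (SD, n = 6 each). The log2 fold change was 1.68 (SE 0.39), yet the adjusted p of 0.0869 by edgeR's quasi-likelihood test missed the threshold. It also missed it on cells paired by UMI count (1.37, adjusted p = 0.183), but passed on thinned cells (1.70, adjusted p = 0.0299) and with cko replicates 1 and 3 added together (1.5, adjusted p = 0.0096, all log2 fold changes by the same test).

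Its neighbours Gzmd and Gzme rose past the threshold. Gzmd (ENSMUSG00000059256, chr14:56129556-56132608, minus strand) stood at 2074, 1147 and 197 CPM in Itga1-positive cells of cko and 1289, 229 and 822 CPM in those of ctr, against 488, 418 and 27.2 CPM in Itga1-zero cells of cko and 209, 100 and 172 CPM in those of ctr. It was higher in Itga1-positive cells of each library, although the levels of different libraries overlapped (log2 fold change 2.12, SE 0.24, adjusted p = 0.00852, edgeR's quasi-likelihood test). Gzme (ENSMUSG00000022156, chr14:56117626-56120625, minus strand) gave a log2 fold change of 2.19 (SE 0.28, adjusted p = 0.0128, same test). The 2 transcripts are 90% identical, but only 7.73% of the 60-base stretches of Gzmd recur unchanged in Gzme, so how reads were divided between the 2 genes is uncertain. With the 2 cko libraries that share clonotypes added together, the adjusted p was 0.0231 for Gzmd and 0.0184 for Gzme (same test). On cells paired by UMI count the log2 fold change was 1.82 for Gzmd (adjusted p = 0.0223) and 1.93 for Gzme (adjusted p = 0.0514), and on thinned cells it was 2.09 for Gzmd (adjusted p = 0.00686) and 2.44 for Gzme (adjusted p = 1.24e-10, same test).

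The promoters of these genes are shown because Gzmd and Gzme rose, and Gzmc was higher in all 6 libraries, while Gzmb, in the same cluster on chromosome 14, did not pass, with a log2 fold change of 0.04 that turned to -0.13 on thinned cells. Each runs from 250 bases before to 50 bases after the RefSeq start, on the minus strand of GRCm38.p6. They lie at chr14:56262285-56262584 for Gzmb, chr14:56234608-56234907 for Gzmc, chr14:56132544-56132843 for Gzmd and chr14:56120576-56120875 for Gzme. Capitals mark matches, on either strand, to the T-box core GTGTGA, the RUNX motif TGTGGT and the AP-1 motif TGANTCA, which do not overlap here.
Gzmb: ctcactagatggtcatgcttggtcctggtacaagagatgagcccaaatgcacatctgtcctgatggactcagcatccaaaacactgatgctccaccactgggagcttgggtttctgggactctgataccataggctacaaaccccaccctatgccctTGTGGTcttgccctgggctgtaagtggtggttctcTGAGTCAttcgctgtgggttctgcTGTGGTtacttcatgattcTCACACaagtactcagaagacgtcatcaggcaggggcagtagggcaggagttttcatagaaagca
Gzmc: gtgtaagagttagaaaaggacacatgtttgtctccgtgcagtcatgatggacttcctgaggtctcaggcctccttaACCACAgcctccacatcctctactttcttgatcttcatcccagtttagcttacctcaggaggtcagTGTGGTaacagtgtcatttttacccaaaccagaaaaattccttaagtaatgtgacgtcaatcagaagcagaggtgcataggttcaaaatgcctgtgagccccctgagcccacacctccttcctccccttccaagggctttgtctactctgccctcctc
Gzmd: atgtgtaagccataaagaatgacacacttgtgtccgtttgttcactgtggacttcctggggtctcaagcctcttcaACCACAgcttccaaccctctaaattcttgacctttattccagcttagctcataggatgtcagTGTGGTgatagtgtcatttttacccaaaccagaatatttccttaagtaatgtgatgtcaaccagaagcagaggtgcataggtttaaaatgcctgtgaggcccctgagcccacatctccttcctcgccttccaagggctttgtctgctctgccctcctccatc
Gzme: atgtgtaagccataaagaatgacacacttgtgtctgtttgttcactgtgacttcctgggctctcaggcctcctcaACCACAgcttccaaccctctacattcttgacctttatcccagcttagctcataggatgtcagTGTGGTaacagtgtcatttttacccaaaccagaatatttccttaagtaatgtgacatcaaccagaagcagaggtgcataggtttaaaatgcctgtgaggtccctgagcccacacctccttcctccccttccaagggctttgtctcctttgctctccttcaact
Gzmb held 1 T-box core, 2 RUNX matches and 1 AP-1 match, whereas Gzmc, Gzmd and Gzme each held 2 RUNX matches and no match to the other 2 motifs. The promoters of Gzmf and Gzmg, genes of the same family that did not pass between the states, held the same counts. The matches thus do not separate the genes that rose from those that did not. The matches of Gzmc lay 174 and 108 bases before the start, those of Gzmd 174 and 112 bases, and those of Gzme 175 and 113 bases. Of 32851 mouse promoters of the same length, 14.5% held the T-box core, 16.8% the RUNX motif and 7.81% the AP-1 motif. Promoter identity was 93.4% between Gzmd and Gzme, 82.7% between Gzmc and Gzmd, and 46% between Gzmb and Gzmc. A match to these letters is a description and not a binding site.

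The other killing genes varied less. Of 16 tested genes of a granzyme and killing list, 5 rose (Gzmd, Gzme, Prf1, Tnfsf10 and the protease Ctsw), 1 fell (Fasl), and the median log2 fold change was 0.19, against 0.00 over all genes. Prf1, the pore-forming perforin, averaged 803 ± 91.1 CPM in Itga1-positive and 706 ± 78.4 CPM in Itga1-zero cells (SD, n = 6 each), with a log2 fold change of 0.26 (SE 0.06, adjusted p = 0.00559, edgeR's quasi-likelihood test), and was higher in 5 of 6 libraries. Prf1 on cells paired by UMI count gave 0.25 (adjusted p = 0.143), and on thinned cells -0.026 (adjusted p = 0.963, same test). Tnfsf10, the death ligand TRAIL, gave a log2 fold change of 0.57, and Fasl, the ligand of the death receptor Fas, one of -0.34 (adjusted p = 0.0111 and 0.0187, same test). On cells paired by UMI count Tnfsf10 passed (adjusted p = 0.0112) and Fasl did not (-0.10, adjusted p = 0.769), and on thinned cells neither passed (adjusted p = 0.607 for Tnfsf10 and 0.428 for Fasl, same test). Gzmb averaged 2155 ± 696 CPM in Itga1-positive and 2145 ± 312 CPM in Itga1-zero cells, and Gzma averaged 3522 ± 1698 CPM in Itga1-positive and 4021 ± 1020 CPM in Itga1-zero cells (SD, n = 6 each). Neither passed the test (adjusted p = 0.948 for Gzmb and 0.559 for Gzma, same test). On thinned cells Gzma fell, with a log2 fold change of -0.68 (adjusted p = 5.33e-17) against -0.20 in the sums of all UMIs and -0.04 on cells paired by UMI count.

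Ctla2a was higher in every library too. This cathepsin inhibitor, first described in activated mouse T cells, stood at 1873, 1973 and 1716 CPM in Itga1-positive cells of cko and 1845, 1777 and 1941 CPM in those of ctr, against 1314, 1106 and 1224 CPM in Itga1-zero cells of cko and 1416, 1185 and 1627 CPM in those of ctr. The states did not overlap over the 6 libraries (log2 fold change 0.57, SE 0.06, adjusted p = 3.67e-05, edgeR's quasi-likelihood test). Igflr1, a receptor of the tumour necrosis factor receptor family, stood at 81.1, 38.6 and 44.6 CPM in Itga1-positive cells of cko and 89.2, 60.1 and 106 CPM in those of ctr, against 21.1, 34.0 and 10.9 CPM in Itga1-zero cells of cko and 28.6, 24.0 and 36.9 CPM in those of ctr. Its log2 fold change of 1.58 (SE 0.12, adjusted p = 2.63e-09, same test) was also past the threshold on cells paired by UMI count (adjusted p = 8.17e-07). Mt2, a metallothionein that binds zinc and copper, was higher in all 6 libraries (log2 fold change 2.27, SE 0.20, adjusted p = 2.84e-07, same test), with levels in Itga1-positive cells between 7 and 134 CPM. These levels rest on few cells. Mt2 was found in 8, 5 and 11 Itga1-positive cells of cko and 48, 5 and 12 of ctr. In cko replicate 3, 1 cell held 71.2% of its UMIs.

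Further genes higher in Itga1-positive cells included adhesion and surface proteins. Cdh1, the adhesion protein E-cadherin, gave a log2 fold change of 1.79, the motor protein gene Myo10 1.45, the receptors Gpr141 and Gpr34 1.09 and 0.94, the semaphorin gene Sema6d 0.99, and the protease gene Adam8 0.88. Klrg1, an inhibitory receptor that binds E-cadherin, stood at 66.5, 186 and 152 CPM in Itga1-positive cells of cko and 69.7, 59.5 and 90.2 CPM in those of ctr, against 49.9, 119 and 73.8 CPM in Itga1-zero cells of cko and 53.1, 25.8 and 38.6 CPM in those of ctr. It was higher in each library (log2 fold change 0.91, SE 0.11, adjusted p = 9.36e-06, edgeR's quasi-likelihood test). Itgb1, the partner chain of integrin alpha 1, gave a log2 fold change of 0.21 (adjusted p = 0.0123, same test).

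Genes known from circulating NK cells were mostly lower. Of 18 tested genes of that list 11 fell, 2 rose (Klrg1 and the chemokine receptor Ccr2), and the median log2 fold change was -0.66, against 0.00 over all genes. Zeb2, a transcription factor of terminal NK maturation, stood at 43.8, 40.8 and 43.5 CPM in Itga1-positive cells of cko and 28.8, 39.7 and 29.8 CPM in those of ctr, against 97.9, 123 and 118 CPM in Itga1-zero cells of cko and 69.2, 92.0 and 61.6 CPM in those of ctr. No Itga1-positive library reached the lowest Itga1-zero library (log2 fold change -1.18, SE 0.09, adjusted p = 2.63e-09, edgeR's quasi-likelihood test). S1pr5, which guides NK cells out of tissue, averaged 3.01 ± 1.58 CPM in Itga1-positive and 15.9 ± 10.3 CPM in Itga1-zero cells (SD, n = 6 each; log2 fold change -1.94, adjusted p = 0.000259, same test), from 1 to 16 UMIs per library in Itga1-positive cells. Cx3cr1, S1pr1, Cma1, Cd27, Itga4 and Rasgrp2 of the list fell too. Klf3, a repressor of the Krüppel-like family, is not on the list and was named for the size of its change. It was also lower (log2 fold change -1.40, adjusted p = 0.000153, same test). On cells paired by UMI count S1pr5 gave -0.87 and missed the threshold (adjusted p = 0.312), while Klf3 gave -1.31 and Zeb2 -0.80 and both passed (adjusted p = 0.00524 and 0.000278, same test). On thinned cells S1pr5 and Zeb2 passed (adjusted p = 0.0278 and 0.000808) and Klf3 did not (0.0868, same test).

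Integrins and adhesion genes went both ways. Of 18 tested, 3 rose (Itgb1, Itgb3 and Adam8), 6 fell (among them Itga2, Itga4, Itgam, Itgb2 and Cd9), and the median log2 fold change was -0.15. Itga2, the integrin alpha 2 chain and sister collagen receptor, averaged 8.47 ± 2.92 CPM in Itga1-positive and 21.3 ± 8.80 CPM in Itga1-zero cells (SD, n = 6 each; log2 fold change -1.13, adjusted p = 0.000587, edgeR's quasi-likelihood test). Itgam, the integrin alpha M chain, averaged 14.7 ± 10.7 CPM in Itga1-positive and 40.9 ± 12.9 CPM in Itga1-zero cells (SD, n = 6 each; log2 fold change -1.43, adjusted p = 0.00116, same test). Both were lower in Itga1-positive cells of all 6 libraries. On cells paired by UMI count they missed the threshold, with log2 fold changes of -0.67 for Itga2 (adjusted p = 0.134) and -1.05 for Itgam (0.055), while Itgam passed on thinned cells (-1.52, adjusted p = 0.00242, same test).

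The name "tissue-type" was set against a list of genes of tissue-resident NK cells and ILC1 that the rule had not used. The list was chosen when earlier results of these data were known. It also holds Gzmc, a marker in the description of these cells, so it is not an independent check of the name. Of 20 tested, 6 rose (Ctla2a, Hopx, Inpp4b, Rgs1, Tnfrsf9 and Tnfsf10), none fell, and the median log2 fold change was 0.17. Zfp683, the residency factor Hobit, averaged 5.74 ± 3.33 CPM in Itga1-positive and 4.19 ± 1.44 CPM in Itga1-zero cells, and Itgae, the integrin of residency CD103, 2.61 ± 1.91 CPM in Itga1-positive and 4.09 ± 5.12 CPM in Itga1-zero cells (SD, n = 6 each). Neither these nor Cxcr6, Cd160 or Il7r passed the test. Eomes, the factor that separates NK cells from ILC1 in many mouse tissues, had a log2 fold change of -0.14 (adjusted p = 0.292) and Tbx21 one of -0.16 (adjusted p = 0.213, both edgeR's quasi-likelihood test). The residency genes fitted the name only in part, so the cells are called by their rule here.

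**Figure D2:**
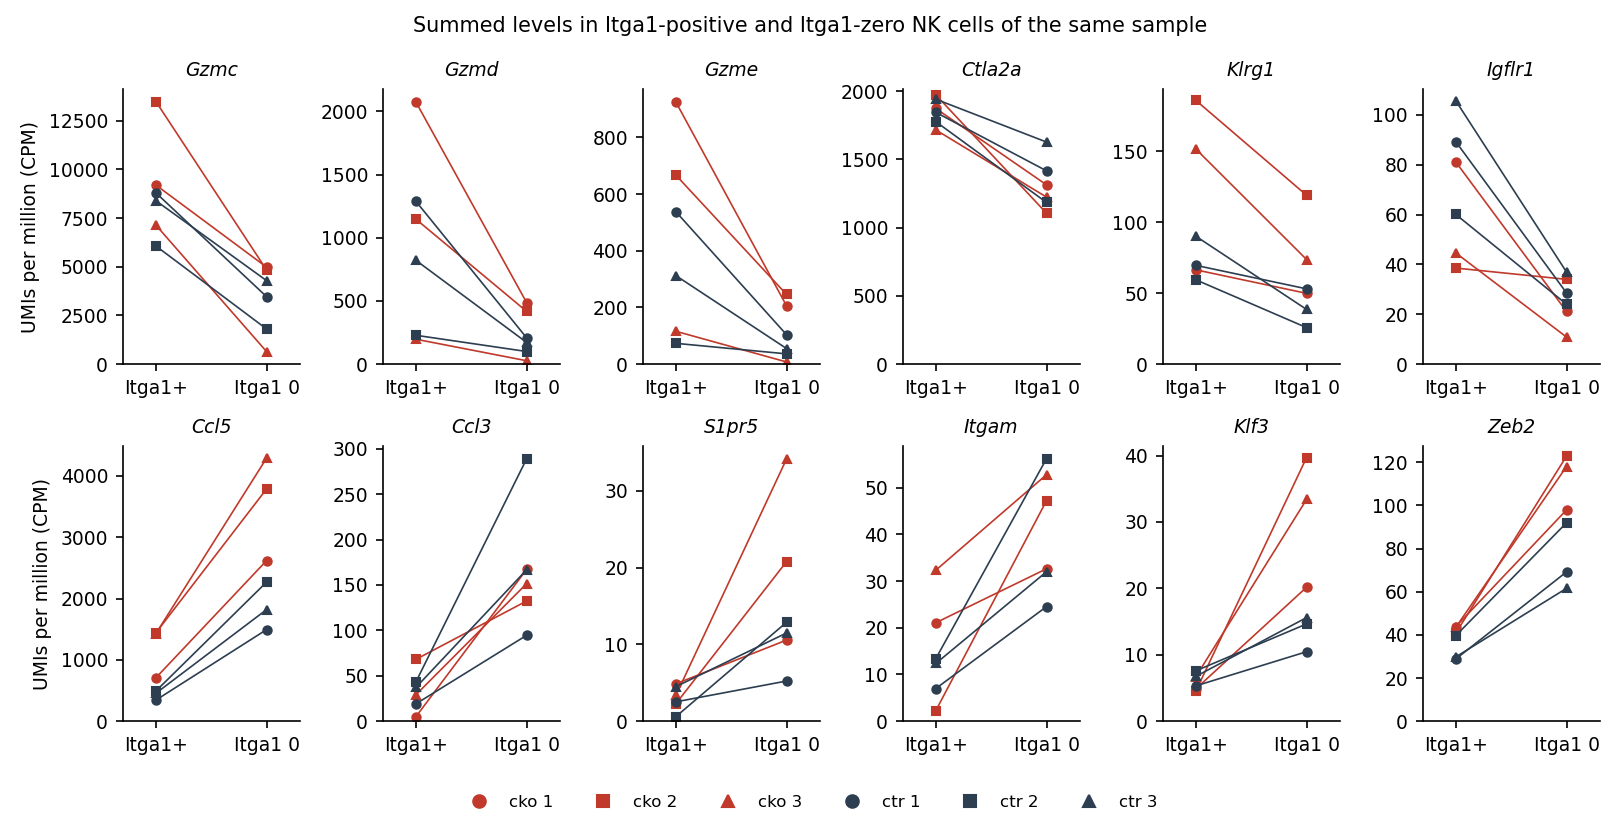
Each panel gives 1 gene's level (CPM, axis from 0) in Itga1-positive NK cells (left) and Itga1-zero NK cells (right), with a line joining the 2 sums of each of the 6 libraries, cko in red and ctr in dark. Gzmc, Gzmd, Gzme, Ctla2a, Klrg1 and Igflr1 are higher in Itga1-positive cells of all 6 libraries, and Ccl5, Ccl3, S1pr5, Itgam, Klf3 and Zeb2 are lower in all 6.

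Chemokine transcripts were lower in Itga1-positive cells. Ccl5, which draws T cells and dendritic cells, stood at 707, 1440 and 1427 CPM in Itga1-positive cells of cko and 343, 491 and 455 CPM in those of ctr, against 2618, 3787 and 4289 CPM in Itga1-zero cells of cko and 1493, 2268 and 1820 CPM in those of ctr. All Itga1-positive values lay below all Itga1-zero values (log2 fold change -1.80, SE 0.14, adjusted p = 0.0017, edgeR's quasi-likelihood test). Ccl3 stood at 4.87, 68.0 and 29.0 CPM in Itga1-positive cells of cko and 19.0, 43.2 and 37.1 CPM in those of ctr, against 167, 132 and 151 CPM in Itga1-zero cells of cko and 94.5, 289 and 167 CPM in those of ctr. It did not overlap between states (log2 fold change -2.32, SE 0.28, adjusted p = 0.00986, same test). Neither passed on cells paired by UMI count, with log2 fold changes of -1.02 for Ccl5 (adjusted p = 0.238) and -1.85 for Ccl3 (0.0992). On thinned cells both did, with -2.15 for Ccl5 (adjusted p = 0.00168) and -2.60 for Ccl3 (2.05e-17, same test). Ccl4, a related chemokine, was lower in 6 of 6 libraries but missed the threshold (log2 fold change -1.37, adjusted p = 0.087, same test). Xcl1, which draws cross-presenting dendritic cells, averaged 1243 ± 344 CPM in Itga1-positive and 1791 ± 678 CPM in Itga1-zero cells (SD, n = 6 each; adjusted p = 0.102, same test).

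The following counts stand against 3.46% of all genes tested higher and 2.73% lower, and 1 call in a list of 20 genes is near that share. Of 12 tested cytokine and chemokine genes, 2 fell (Ccl3 and Ccl5), 1 rose (Flt3l, a growth factor of dendritic cells), and the median log2 fold change was -0.35. Of 14 cytokine receptor genes, 4 fell: Il18r1 by 0.83, Il18rap by 0.68, Il12rb2 by 0.46 and Ifngr1 by 0.30 on the log2 scale. Tgfbr2, a receptor chain for transforming growth factor beta, rose by 0.24 on the log2 scale (adjusted p = 0.048, edgeR's quasi-likelihood test) but passed in 4 of 18 alternatives only. Of 14 checkpoint and costimulation genes, 5 rose and none fell (median 0.29), among them Icos (0.75), Ctla4 (0.55), Lag3 (0.44), Cd96 (0.42) and Tnfrsf9 (0.38), all log2 fold changes. Of 22 NK receptor genes, 5 rose and 3 fell. Of 20 proliferation genes, 1 rose (Ccna2) with a median of 0.40, and Mki67 had an adjusted p of 0.128. Of 25 transcription factors, 2 rose (Hopx and Id2) and 3 fell (Bach2, Prdm1 and Zeb2). Of 22 genes induced by interferon gamma, 2 fell (Irf1 and Nlrc5) and none rose, with a median of -0.05. Of 20 genes of dissociation stress, 2 fell (Dusp1 and Junb) and 1 rose (Dusp2), with a median of -0.12. Of 18 glycolysis genes, 3 rose (Gpi1, Pgk1 and Pkm) and none fell, with a median of 0.03.

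Genes of other cell types were counted beside these. Of 14 tested macrophage genes 6 fell, 1 rose (Ccr2), and the median log2 fold change was -1.43. Their summed level in Itga1-positive cells ranged from 560 to 874 CPM in cko and from 864 to 1932 CPM in ctr, and in Itga1-zero cells from 945 to 1353 CPM in cko and from 1944 to 3200 CPM in ctr. C1qa, Lgmn, Fn1 and Slpi, which gave log2 fold changes of -1.52, -1.56, -1.43 and -2.02, are genes of macrophages or other myeloid or epithelial cells, and the part of free macrophage RNA in them was not tested. Summed T cell genes ranged from 444 to 611 CPM in Itga1-positive cells of cko and from 405 to 479 CPM in those of ctr. Of 10 genes of ILC2 and ILC3, 7 were at 0 in Itga1-positive cells of all libraries (among them Il1rl1, Il17rb, Il23r, Il13, Il5 and Il22). Of 3 tested genes of tumour and stroma, 2 rose (Cdh1 and Pecam1, an adhesion protein that leukocytes carry too). The B cell genes Ms4a1 and Pax5 were also at 0.

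Levels also stepped with the number of Itga1 UMIs in a cell. Cells with 0, 1 or at least 2 Itga1 UMIs numbered 1112, 389 and 379, and their median depths per library ranged from 2754 to 9185, from 9360 to 13422 and from 10781 to 15943.5 UMIs. Mean Gzmc was 3334, 7192 and 10054 CPM over these steps, rising at each step in 5 of 6 libraries. Mean Ctla2a was 1312, 1656 and 2026 CPM, rising in 6 of 6. Mean Ccl5 was 2713, 984 and 686 CPM, Zeb2 93.6, 47.4 and 28.6 CPM, the migration factor Klf2 233, 147 and 89.6 CPM and Ccl3 167, 56.6 and 11.3 CPM, each falling at both steps in 5 of 6 libraries. Mean Gzmb was 2145, 2045 and 2224 CPM, with libraries moving either way. The depth of the cells stepped up in the same order, and its part in these gradients was not tested.

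**Figure D3:**
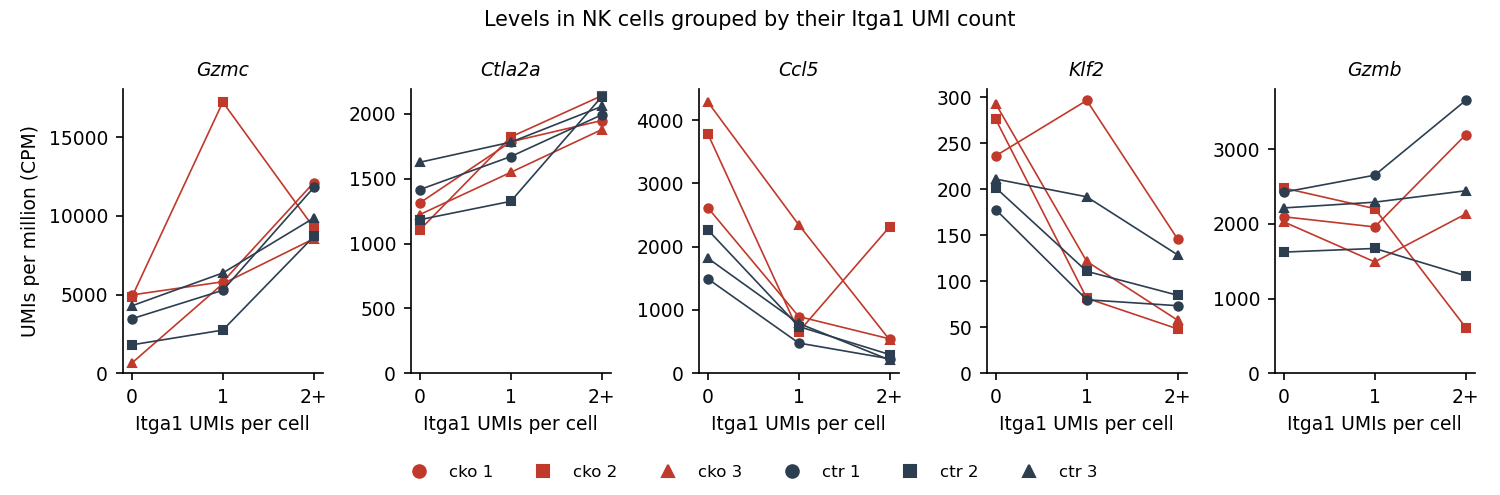
Each panel gives 1 gene's level (CPM, axis from 0) in NK cells with 0, 1 and at least 2 Itga1 UMIs, with a line for each of the 6 libraries, cko in red and ctr in dark. Gzmc and Ctla2a climb and Ccl5 and Klf2 descend at both steps in at least 5 of 6 libraries, while Gzmb moves either way, with means between 2045 and 2224 CPM.

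Detection was also compared in cells thinned to 1888 UMIs, with shallower cells left out. Gzmc was then seen in 67.1 ± 5.34% of Itga1-positive cells of cko and 60.5 ± 6.81% of those of ctr, against 28.9 ± 7.59% of Itga1-zero cells of cko and 33.4 ± 8.94% of those of ctr (SD, n = 3 each). Ccl5 was seen in 21.1% of Itga1-positive cells of cko and 22.3% of those of ctr, against 55.0% of Itga1-zero cells of cko and 47.9% of those of ctr. Gzmd was seen in 21.1% of Itga1-positive cells of cko and 16.5% of those of ctr, against 5.47% of Itga1-zero cells of cko and 5.83% of those of ctr. Prf1 was seen in 52.2% of Itga1-positive cells of cko and 58.9% of those of ctr, against 56.1% of Itga1-zero cells of cko and 59.2% of those of ctr, which is not the order of its summed level. In macrophages, which should lack it, Gzmc was found unthinned in 2.36 to 3.98% of cko and 4.13 to 6.15% of ctr cells.

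Single cells differed widely within the Itga1-positive cells. The 10% of cells with the most Gzmc UMIs held 57.1, 69.2 and 54.5% of Gzmc UMIs in cko replicates 1 to 3 and 56.4, 59.3 and 53.3% in ctr replicates 1 to 3. For Gzmd these cells held 94.0, 86.8 and 86.4% in cko and 88.8, 96.4 and 91.2% in ctr. The granule gene Nkg7 was spread far more evenly, with 29.8, 32.7 and 26.5% in cko and 23.6, 23.7 and 21.4% in ctr. Sums of Gzmd, Gzme and Gzmf thus rest on few cells, and 1 cell held 84.5% of the Gzmf UMIs of ctr replicate 3. For Ccl5, 1 cell held 75.1% of the UMIs of cko replicate 2.

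**Figure D4:**
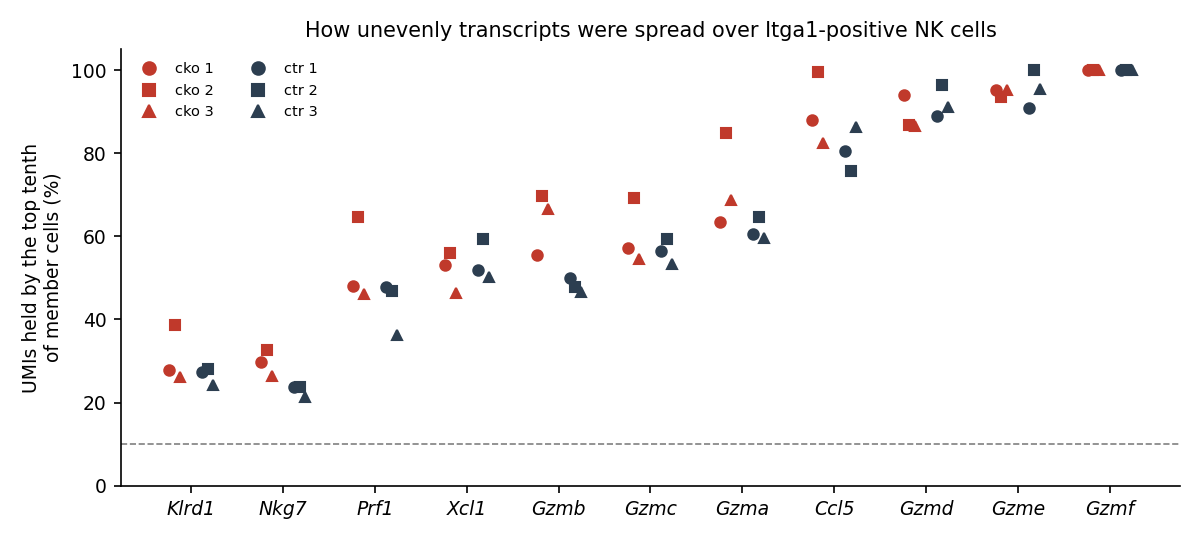
The points give, for 11 genes, the percent of a gene's UMIs held by the 10% of Itga1-positive NK cells with the most of them, 1 point for each library, cko (red) left of ctr (dark), and the dashed line at 10% marks an even spread. Nkg7 lies at 21.4 to 32.7%, Gzmc at 53.3 to 69.2% and Gzmd at 86.4 to 96.4%.

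Gzmd and Gzme UMIs were mostly found in the same cells. Among Itga1-positive cells with a Gzmd UMI, 81.3, 78.6 and 84.6% in cko and 72.4, 45.5 and 68.3% in ctr also had a Gzme UMI. Among those without Gzmd, 0, 0 and 1.79% in cko and 6.37, 0 and 2.16% in ctr had one. Gzmc was seen in 92.9 to 100% of cells with Gzmd and in 51.4 to 74.6% of cells without. Ccl5 was seen in 35.3, 22.6 and 40.0% of Gzmc-bearing cells of cko and 37.9, 36.1 and 34.0% of those of ctr, against 52.6, 7.14 and 73.7% of Gzmc-free cells of cko and 58.9, 65.0 and 62.5% of those of ctr. Gzma was seen in 58.8, 41.9 and 48% of Gzmc-bearing cells of cko and 54.2, 63.9 and 62.4% of those of ctr, against 47.4, 7.14 and 52.6% of Gzmc-free cells of cko and 69.6, 47.5 and 72.9% of those of ctr, with no common direction. The Ccl5 share was lower in Gzmc-bearing cells of 5 libraries out of 6, with cko replicate 2 the exception. Gzmc-free cells were shallower than Gzmc-bearing cells in every library. In cko replicate 2 the 14 Gzmc-free cells had a median of 1668.5 UMIs, against 11756 in Gzmc-bearing cells. Only 1 of those 14 cells held Ccl5, and only 1 held Gzma. The part of depth in these shares was not tested. Gzmd-bearing and Gzmd-free cells differed in depth, and the near-identical stretches of Gzmd and Gzme could add to their overlap.

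Between genotypes, Itga1-positive cells of cko tumours carried more transcripts of the growth factor receptor Kit, the kinase Camk4, the inhibitory receptor Klrc1 and the enzyme Upp1, and fewer of Tmem273, than those of ctr tumours. The fit of 6 libraries also called 4 cytokine receptors and Eomes, which missed the threshold with cko replicates 1 and 3 added together. Of 8265 genes tested over the 6 samples, 78 (0.944%) passed an adjusted p of 0.05 by edgeR's quasi-likelihood test with Benjamini-Hochberg adjustment, 47 (0.569%) higher and 31 (0.375%) lower in cko. With cko replicates 1 and 3 added together 11 genes passed, 10 of them among the 78. Without cko replicate 3, 7 genes passed, without cko replicate 1 38, without cko replicate 2 33, without ctr replicate 1 131, without ctr replicate 2 23 and without ctr replicate 3 37. Called or not, cko and ctr did not overlap for 21.7% of genes tested, 14.1% higher and 7.6% lower in cko. Camk4, Kit, Klrc1, Upp1 and Tmem273 passed in each of these 6 fits and with the 2 libraries added.

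Kit (ENSMUSG00000005672, chr5:75574916-75656722, plus strand), the stem cell factor receptor found on ILC and immature NK cells, stood at 112, 86.2 and 94.8 CPM in Itga1-positive cells of cko replicates 1 to 3 and at 27.1, 17.5 and 19.4 CPM in those of ctr replicates 1 to 3. All 3 cko values lay far above all 3 ctr values. The means were 97.6 ± 13.1 CPM in cko and 21.3 ± 5.11 CPM in ctr (SD, n = 3 each), and the log2 fold change was 2.10 (SE 0.19, adjusted p = 8.07e-05, edgeR's quasi-likelihood test). Kit was found in 45.3, 46.7 and 43.5% of Itga1-positive cells in cko and in 28.3, 14.6 and 18% in ctr. Thinned to 1888 UMIs it was found in 17.5 ± 2.67% of Itga1-positive cells in cko and 4.28 ± 1.65% in ctr (SD, n = 3 each). In Itga1-zero cells its log2 fold change was 1.39 (adjusted p = 0.0199), and with cko replicates 1 and 3 added together 1.41 (adjusted p = 0.0827, same test), past the threshold no more.

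Camk4, a calcium-dependent kinase, stood at 51.9, 65.8 and 66.9 CPM in Itga1-positive cells of cko and 17.3, 10.5 and 14.1 CPM in those of ctr (log2 fold change 2.02, SE 0.22, adjusted p = 0.000331, edgeR's quasi-likelihood test). Klrc1, the receptor chain NKG2A that binds Qa-1, stood at 367, 431 and 453 CPM in Itga1-positive cells of cko and 198, 231 and 174 CPM in those of ctr (log2 fold change 1.00, SE 0.13, adjusted p = 0.00143, same test). Upp1, an enzyme that splits uridine, stood at 102, 81.6 and 93.7 CPM in Itga1-positive cells of cko and 28.5, 23.3 and 34.0 CPM in those of ctr (log2 fold change 1.61, SE 0.18, adjusted p = 0.000331, same test). None of the 3 overlapped between groups. In Itga1-zero cells the log2 fold changes of cko over ctr were 2.18 for Camk4 (adjusted p = 0.00431), 0.69 for Klrc1 (0.0103) and 1.21 for Upp1 (0.233, all the same test). Camk4 also passed there with cko replicates 1 and 3 added together (adjusted p = 0.00699) and Klrc1 did not (0.0618, same test).

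Of 14 cytokine receptor genes tested, 4 rose in cko (Il7r, Il2ra, Il12rb2 and Il18r1), none fell, and the median log2 fold change was 0.22, against 0.01 over all genes. Il7r, the interleukin-7 receptor chain, stood at 17.8, 22.7 and 34.6 CPM in Itga1-positive cells of cko and 6.15, 5.83 and 1.97 CPM in those of ctr (log2 fold change 2.46, SE 0.41, adjusted p = 0.0172, edgeR's quasi-likelihood test). It was found in 11.3, 11.1 and 17.4% of those cells in cko and 6.01, 4.07 and 2.45% in ctr. Il2ra, the high-affinity interleukin-2 receptor chain, stood at 16.2, 43.1 and 34.6 CPM in cko and 10.1, 12.2 and 5.34 CPM in ctr (log2 fold change 1.73, adjusted p = 0.0450, same test). Il12rb2 and Il18r1, receptor chains for 2 inducers of interferon gamma, gave log2 fold changes of 0.93 and 0.97 (adjusted p = 0.0287 and 0.0253, same test). All 4, with cko replicates 1 and 3 added together, missed the threshold, with adjusted p-values of 0.0536 for Il7r, 0.09 for Il2ra, 0.0516 for Il12rb2 and 0.078 for Il18r1, and none passed in every fit without 1 library. The same 4 genes of the list passed, higher in cko, among Itga1-zero cells, and there too all 4 missed it with the 2 libraries added (adjusted p = 0.0594, 0.0882, 0.0661 and 0.0905 in the same order, same test).

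Of 25 transcription factors, 3 rose in cko (Ikzf2, Rora and Tcf7), 1 fell (Eomes), and the median log2 fold change was 0.15. Rora, a nuclear receptor needed by ILC2, stood at 38.9, 29.5 and 33.5 CPM in Itga1-positive cells of cko and 12, 9.33 and 3.93 CPM in those of ctr (log2 fold change 1.97, SE 0.36, adjusted p = 0.0245, edgeR's quasi-likelihood test). Tcf7, a factor of early NK and T cells, averaged 123 ± 42.4 CPM in cko and 55.4 ± 11.7 CPM in ctr (SD, n = 3 each; log2 fold change 1.16, adjusted p = 0.0480, same test). Eomes stood at 133, 134 and 145 CPM in Itga1-positive cells of cko and 167, 216 and 224 CPM in those of ctr (log2 fold change -0.61, SE 0.13, adjusted p = 0.0444, same test). With cko replicates 1 and 3 added together none of the 4 passed, with adjusted p-values of 0.157 for Eomes, 0.105 for Rora, 0.175 for Tcf7 and 0.113 for Ikzf2. The summed genes of ILC2 and ILC3 ranged from 36.3 to 119 CPM in cko and from 33.0 to 58.9 CPM in ctr, with Il1rl1 at 0, and the part of such cells in Kit, Il7r and Rora was not tested.

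Other genes higher in cko were Ccdc184 (2.46), the checkpoint receptor gene Havcr2 (1.85), the syndecan gene Sdc4 (1.64), the glucose transporter gene Slc2a3 (1.55), Tnfsf11, the cytokine RANKL (1.51), Hip1 (1.5), Gpr183, a receptor for oxysterols (1.02), Ikzf2 (1.01) and Emb (0.93), all as log2 fold changes. Lower in cko were Tmem273, at 1.62, 0 and 4.46 CPM in cko and 26.3, 18.7 and 26.1 CPM in ctr (log2 fold change -3.28, SE 0.48, adjusted p = 0.00456, edgeR's quasi-likelihood test), and Ccrl2, a chemerin-binding receptor, at 24.3, 6.80 and 17.8 CPM in cko and 50.9, 91.6 and 64.9 CPM in ctr (log2 fold change -2.03, adjusted p = 0.0245, same test). Neither gene overlapped between groups, and in Itga1-zero cells the log2 fold change was -2.70 for Tmem273 (adjusted p = 0.0192) and -1.17 for Ccrl2 (0.0199, same test). Both, with cko replicates 1 and 3 added together, missed the threshold there (adjusted p = 0.0649 for Tmem273 and 0.0701 for Ccrl2), and Ccrl2 turned to 0.30 after removal of likely doublets and to 0.33 without cells holding genes that define other lineages. Genes of ribosome making, Nhp2 and Gar1, gave -0.93 and -0.83, and Myc, a factor that drives growth, gave -0.80 (adjusted p = 0.0172, 0.0444 and 0.0398, same test). Of these, Hip1, Ccdc184 and Nhp2 also passed with cko replicates 1 and 3 added together, as did Tmem273. The others missed the threshold then, with adjusted p-values of 0.0567 for Havcr2, 0.0618 for Sdc4, 0.0607 for Slc2a3, 0.0772 for Tnfsf11, 0.0913 for Gpr183, 0.113 for Ikzf2, 0.059 for Emb, 0.105 for Ccrl2, 0.105 for Gar1 and 0.157 for Myc.

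**Figure D5:**
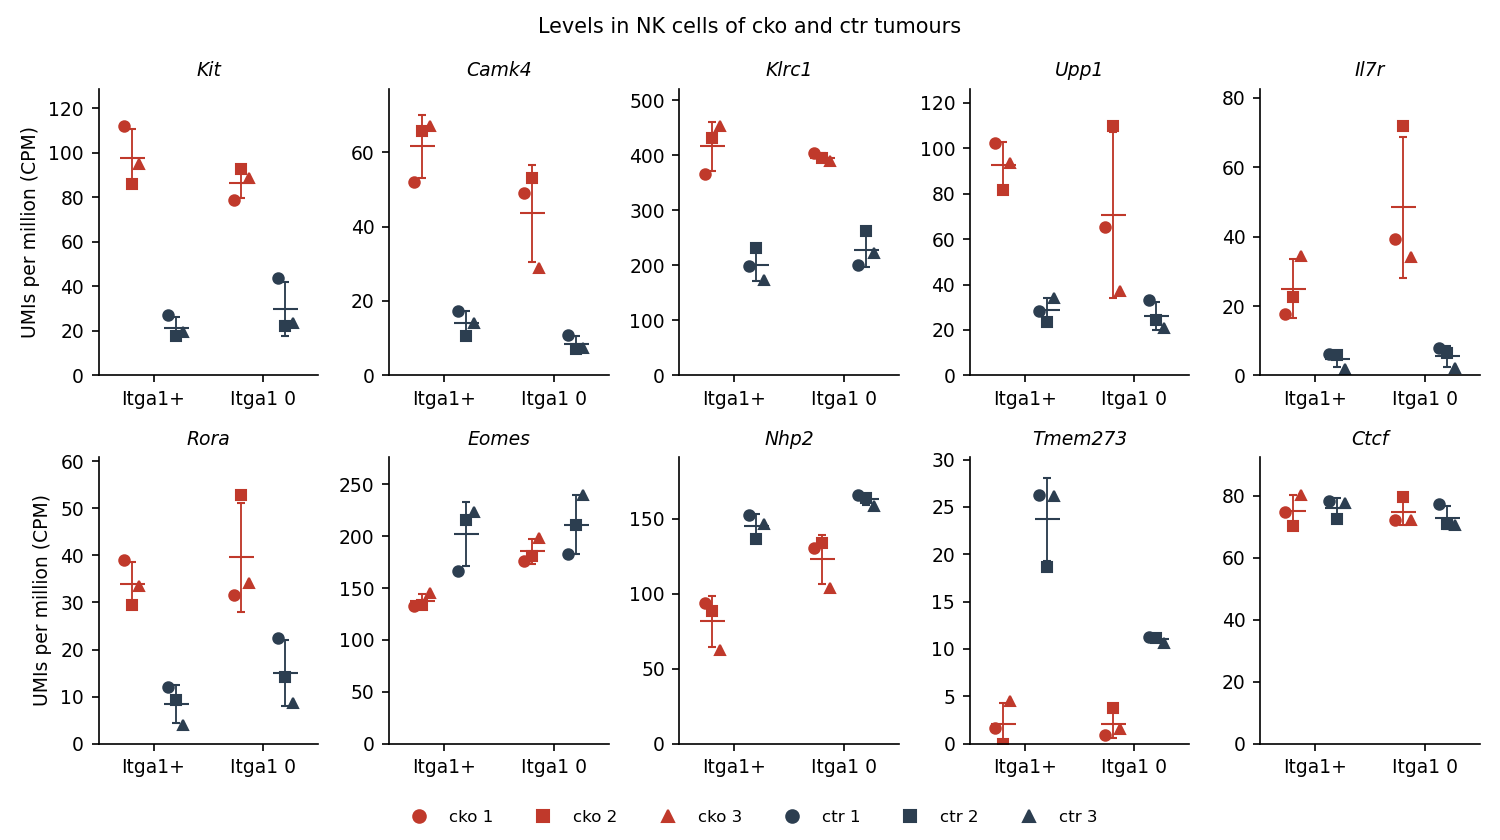
Each panel gives 1 gene's level (CPM, axis from 0) in Itga1-positive and Itga1-zero NK cells, with a point for each library, cko (red) left of ctr (dark), and bars for the group mean ± SD (n = 3 each). Among Itga1-positive cells Kit, Camk4, Klrc1, Upp1, Il7r and Rora lie higher in every cko than in every ctr library, Eomes, Nhp2 and Tmem273 lie lower in every cko library, and Ctcf overlaps.

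Genes that set Itga1-positive cells apart from Itga1-zero cells were mostly not past the threshold between genotypes. Of 15 tested granzyme and killing genes none passed, with a median log2 fold change of 0.11. Gzmc averaged 9935 ± 3236 CPM in cko and 7749 ± 1472 CPM in ctr (SD, n = 3 each; log2 fold change 0.30, adjusted p = 0.732, edgeR's quasi-likelihood test). Ccl5 averaged 1191 ± 419 CPM in cko and 430 ± 77.0 CPM in ctr (SD, n = 3 each) with no overlap, but missed the threshold (log2 fold change 1.42, adjusted p = 0.185, same test). It passed with cko replicates 1 and 3 added together (1.53, adjusted p = 0.00658) and on thinned cells (adjusted p = 0.00874, same test). The cell richest in Ccl5 held 38.5, 75.1 and 50.3% of its UMIs in cko replicates 1 to 3 and 12.4, 15.0 and 13.4% in ctr replicates 1 to 3. The UMIs of the other cells came to 435, 358 and 709 CPM in cko and 301, 418 and 394 CPM in ctr, which overlap. Only the Ccl5 UMIs of the richest cell were left out there, and its other UMIs stayed in the total. A single cell is a larger part of the 53, 45 and 69 cko cells than of the 233, 123 and 245 ctr cells. These values therefore do not treat the groups alike and cannot decide whether Ccl5 differed. Ctla2a averaged 1854 ± 129 CPM in cko and 1854 ± 82.6 CPM in ctr (SD, n = 3 each). Cxcr6, a chemokine receptor of tissue lymphocytes, stood at 53.5, 56.7 and 44.6 CPM in cko and 17.6, 19.8 and 6.74 CPM in ctr, just short of the threshold (log2 fold change 1.78, adjusted p = 0.0512, same test). None of 10 cytokine, 15 integrin, 20 proliferation or 18 glycolysis genes tested passed. The median log2 fold change was -0.76 over the proliferation genes, and after thinning 13.9 ± 1.75% of Itga1-positive cells of cko and 21.2 ± 8.24% of those of ctr held a UMI of 8 cycle genes (SD, n = 3 each; exact permutation p = 0.3). None of 10 macrophage genes tested passed either, with a median of -1.72. Gzma, at 4672 ± 1798 CPM in cko and 2371 ± 69.3 CPM in ctr (SD, n = 3 each), had an adjusted p of 0.331 in Itga1-positive cells and rose by 0.50 on the log2 scale in Itga1-zero cells of cko (adjusted p = 0.0357, edgeR's quasi-likelihood test), though not with cko replicates 1 and 3 added together (adjusted p = 0.0827). On thinned Itga1-positive cells its adjusted p was 0.00989 (same test). Ctcf, the gene deleted in Tregs, stood at 74.6, 70.3 and 80.3 CPM in Itga1-positive cells of cko and 78.3, 72.3 and 77.5 CPM in those of ctr (adjusted p = 0.853, same test). This does not check the labels, since NK cells are not the targeted cells.

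In Itga1-zero cells, 100 of 8782 genes (1.14%) passed between genotypes, 62 (0.706%) higher and 38 (0.433%) lower in cko, while groups did not overlap for 23.4% (17.3% higher and 6.16% lower). With cko replicates 1 and 3 added together 13 genes passed, 12 of them among the 100. Whether the genotype difference itself was unlike in the 2 states was tested as an interaction over all 12 sums. No gene of 9592 passed by edgeR's quasi-likelihood test (561 at an unadjusted p under 0.05) or by DESeq2 (94 at an unadjusted p under 0.05). The smallest adjusted p among the genes named here belonged to Slc2a3 (0.0697), with a log2 fold change of cko over ctr of 1.55 in Itga1-positive and -0.19 in Itga1-zero cells. For Kit the interaction was 0.72 on the log2 scale (adjusted p = 0.634) and for Camk4 -0.11 (adjusted p = 0.995, same test). The genotype differences of Itga1-positive cells are therefore not shown to be particular to them.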

How the data were processed

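Single-cell RNA and T cell receptor libraries of 6 samples were used. The authors made the deposited UMI counts, which are raw and given for each gene in each barcode, with Cell Ranger 7.0.0 on GRCm38 (mm10), per the submitters' processing notes. Their deposited contig tables list assembled receptor chains with UMI counts. Whether doublets or free RNA had been removed is not stated in what was used here.

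Barcodes were filtered and NK cells chosen as stated at the start, with the members and gene lists chosen when earlier results of these data were known. UMI counts were summed per library and Itga1 state and tested with edgeR 4.0.16 (R 4.3.3; TMM scaling, filterByExpr, robust quasi-likelihood fit, Benjamini-Hochberg adjustment over all genes tested), with the 8 genes of the rule left out. The fit of Itga1-positive against Itga1-zero cells had the library as a block, and the genotype fits had none. Shares were compared by exact permutation over samples, with exact (Clopper-Pearson) intervals at 95%. The fits were tested on simulated data.

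The alternatives were DESeq2 1.42.0, no filter on low counts, and stricter cell rules (3 NK genes, 2 Itga1 UMIs, at most 5% mitochondrial UMIs). Cells with at least 2 genes of the T cell list or at least 2 of the macrophage list were also removed. Further alternatives were cells paired by UMI count within a factor of 1.25, thinning to 1888 UMIs and the replicate number as a block. The last were leaving out each library, and cko replicates 1 and 3 added together. Thinning in the genotype fits, the ranges of UMI count for the Itga1 share, and the removal of cells with genes that define other lineages were chosen after seeing the data. For doublets, the Scrublet method of scanpy 1.11.5 was run per library. Its own threshold marked 451 cells, or 1.144% overall but only 0.049% in cko replicate 2, so as an alternative the highest-scoring cells were removed at 0.8% per 1000 barcodes, which took out 2203 cells, 122 NK cells and 51 Itga1-positive cells among them.

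Genes named were those of fixed lists and, in each comparison, up to 12 called genes in each direction with the largest change, a mean of at least 20 CPM in the higher group, and no overlap between groups or the same direction in every library. Mitochondrial, ribosomal, unnamed, receptor and immunoglobulin segment genes were left out of these. Promoters came from RefSeq on GRCm38.p6, and coordinates from the GRCm38 annotation. Same-numbered cko and ctr samples correlated at 0.188, 0.0315 and -0.0899 in their deviations from the group means, so the numbers were not taken to pair samples.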

Additional observations from a re-analysis of the deposited data

How the results depend on the processing

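Of the genes between Itga1-positive and Itga1-zero cells, 594 passed, against 261 by DESeq2, 374 with 3 of 5 NK genes, 319 on cells paired by UMI count, 187 after thinning, 52 with no replicate block (here the library), and 396 to 531 without 1 library. Between genotypes in Itga1-positive cells 78 passed, against 399 with no filter on low counts, 29 with at least 2 Itga1 UMIs, 19 with 3 of 5 NK genes, 19 after thinning, 35 without cells holding genes that define other lineages, 11 with cko replicates 1 and 3 added together, and 7 to 131 without 1 library. In Itga1-zero cells 100 passed, against 37 by DESeq2, 426 with no filter, 41 with 3 of 5 NK genes and 203 after removal of likely doublets. Without cells holding at least 2 genes of the T cell or of the macrophage list 216 passed, and 196 without the lineage-defining genes. At 5% mitochondrial UMIs 49 passed, 45 after thinning, 13 with the 2 cko libraries added together, and 20 to 92 without 1 library. For the interaction 0 passed, against 19 with no filter, 2 with at least 2 Itga1 UMIs, 2 with 3 of 5 NK genes, 1 after doublet removal, 3 at 5% mitochondrial UMIs, 1 with the 2 cko libraries added together, and 0 to 7 without 1 library. The causes of these changes were not tested. With the replicate number as a block the genotype count was 99 in Itga1-positive cells, 243 in Itga1-zero cells and 2 for the interaction, and the numbers do not pair the samples.

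Among the named genes past the threshold, and the shares, directions turned in 5 places. Not all other called genes kept their sign either. Between the states 564 of 583 called genes tested kept it on cells paired by UMI count and 426 of 443 after thinning. Between genotypes in Itga1-zero cells 94 of 96 kept it after doublet removal. Values near 0 that never passed, such as Gzmb between the states (0.04, and -0.16 with 3 of 5 NK genes), changed sign too. Prf1 between the states gave -0.026 after thinning. In Itga1-zero cells Ccrl2 gave 0.30 after doublet removal and 0.33 without the lineage-defining genes, and Lgmn gave 0.66 after doublet removal. Without cells holding at least 2 genes of the T cell or of the macrophage list, the NK share of kept cells in cko was 0.0142 points above that in ctr (exact permutation p = 0.9). The cause was not tested. That removal left NK cells of lower median UMI count in every library. It left fewer than 10 Itga1-positive cells in each cko library, so the gene comparisons among Itga1-positive cells were not run on it. The NK cells themselves carry some genes of those lists.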
